A study of Mus musculus with 2 samples.

Results

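The 10 genes followed here mark antibody-secreting plasma cells or serve the stress response of their secretory pathway: *Xbp1*, *Prdm1*, *Irf4*, *Mzb1*, *Sdc1*, *Tnfrsf17*, *Slamf7*, *Hspa5*, *Herpud1* and *Creld2*. They were taken as a named list from the 32285 genes counted, and all 10 were present in both libraries used. The study compared C57BL/6 mice with the wild type *Ptpn22* allele (PEP-WT) and C57BL/6 mice homozygous for a CRISPR/Cas9-made pro-autoimmune allele (PEP-619WW), which changes 1 residue of the phosphatase PEP in every cell that makes it. Adult, age-matched and sex-matched mice of both genotypes were infected with LCMV-cl13, a virus strain that sets up a persistent infection, and their spleens were taken 8 days post infection (dpi). Splenocytes of 4 to 5 mice were pooled by genotype, and live CD45+ cells were sorted for droplet libraries. For each genotype 2 libraries were deposited, as a first and a second run, and how the runs relate is not stated. The first run is described here, because it held nearly all plasma cell-like barcodes. The barcode totals of the second run, not those of the first, match the cell numbers in the methods of the study. The mice, day and sort are therefore those given for the samples and are not known for each run. No uninfected library was analysed. With 1 library per genotype used there was no replicate error, so no test between genotypes was possible. Every interval below is an exact 95% interval that covers counting error only, and intervals that do not overlap show a difference between these 2 libraries, not between the genotypes.

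Plasma cells arise from activated B cells when *Irf4*, *Prdm1* and *Xbp1*, which encode transcription factors, replace the B cell program by one of antibody secretion. The flow of immunoglobulin chains loads the endoplasmic reticulum (ER), and the ER sensors IRE1, ATF6 and PERK answer by the unfolded protein response, which raises chaperones and the machinery that removes misfolded chains. IRE1 acts by splicing *Xbp1* mRNA, and the 3' counts used here sum the spliced and unspliced forms. *Hspa5* encodes BiP, the main ER chaperone and a restraint on all 3 sensors. *Herpud1* encodes a membrane protein of ER-associated degradation, and *Creld2* encodes an ER protein released under ER stress. *Mzb1* encodes an ER co-chaperone of immunoglobulin assembly. At the cell surface, *Sdc1* encodes CD138, the common plasma cell marker, *Tnfrsf17* encodes BCMA, a receptor for the survival factors APRIL and BAFF, and *Slamf7* encodes a SLAM family receptor that natural killer cells and activated T cells also carry.

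The start regions of the 3 ER stress members are shown because they carry the element through which ATF6 and XBP1 are known to act. In GRCm38.p6 (RefSeq), 9 of the 10 members had an entry, and the 250 bases before each start were searched on both strands. The ER stress response element was spelled as CCAAT, 9 bases of any kind and CCACG, and its second form as ATTGG, 1 base of any kind and CCACG. The sequences below give the 150 bases before the start, 5' to 3' on the gene's strand, with the matches in capitals.
Hspa5 (chr2:34771940-34772089, plus strand): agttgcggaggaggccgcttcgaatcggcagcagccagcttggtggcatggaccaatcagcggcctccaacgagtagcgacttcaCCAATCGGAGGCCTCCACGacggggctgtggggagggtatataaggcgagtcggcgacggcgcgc
Creld2 (chr15:88819496-88819645, plus strand): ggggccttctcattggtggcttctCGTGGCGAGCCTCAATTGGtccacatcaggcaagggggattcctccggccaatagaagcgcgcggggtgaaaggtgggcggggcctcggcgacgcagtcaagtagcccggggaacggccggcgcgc
Herpud1 (chr8:94386279-94386428, plus strand): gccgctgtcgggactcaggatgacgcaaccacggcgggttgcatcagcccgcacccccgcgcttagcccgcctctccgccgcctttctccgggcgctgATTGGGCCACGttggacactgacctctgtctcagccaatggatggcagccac
*Hspa5* held the first form on its own strand, *Creld2* held it on the opposite strand, and *Herpud1* held the second form, so that all 3 ER stress members and none of the other 6 members searched had a match. The *Herpud1* stretch also ends in CCAAT, 9 bases and CCAC, where the window stopped, so the first form was not settled there. Of 32851 promoter entries, 0.113% held the first form and 0.0304% held the second. In GRCm38 (GENCODE) the genes of these 9 members lie at chr11:5520659-5525893 (*Xbp1*), chr10:44437177-44528501 (*Prdm1*), chr13:30749226-30766976 (*Irf4*), chr12:8771323-8793715 (*Sdc1*), chr16:11313812-11320074 (*Tnfrsf17*), chr1:171632403-171653035 (*Slamf7*), chr2:34771970-34777547 (*Hspa5*), chr8:94386438-94395377 (*Herpud1*) and chr15:88819646-88826683 (*Creld2*). The GENCODE model of *Hspa5* begins upstream of the RefSeq start, so that the stretch printed lies partly within it. A match describes letters in this window and is not evidence of binding.

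Barcodes were assigned to classes by their unique molecular identifiers (UMIs, counts of captured transcripts). The plasma gate took barcodes with at least 5 *Mzb1* UMIs, which were divided into IgM, IgG and IgA barcodes by the heavy chain with the most UMIs. B barcodes had UMIs of *Cd79a* and *Ms4a1* and fewer than 5 of *Mzb1*, and T barcodes had *Cd3e* and no *Cd79a*. The plasma gate held 2361 of 14821 PEP-WT barcodes (15.9%, 15.3 to 16.5%) and 1893 of 8576 PEP-619WW barcodes (22.1%, 21.2 to 23.0%). PEP-WT had 1060 IgM and 1264 IgG barcodes, and PEP-619WW had 515 IgM and 1348 IgG barcodes, so the IgG part was larger in PEP-619WW. There were 20 and 23 IgA barcodes, 5515 and 2313 B barcodes, and 1754 and 1057 T barcodes, respectively. Median depth was 9899 and 11400 UMIs in the plasma gate, 2460 and 3048 in B barcodes, and 4024.5 and 6360 in T barcodes.

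The labelled tissue and the gates were checked against marker genes. The labels name liver, a human T cell line and tumor-infiltrating cells, whereas the protocol and the study describe splenocytes. The hepatocyte genes *Alb*, *Ttr* and *Serpina1a* had 0 UMIs in both libraries, and *Apoa1* had 1 UMI in each. The melanocyte gene *Dct* was found in 0.0270% and 0.0117% of the barcodes of these libraries, against 16.0% and 2.74% in the second run. Runs of 1 genotype shared only 38 (PEP-WT) and 19 (PEP-619WW) barcode sequences. IgG barcodes were mostly plasma cell-like: *Jchain*, the joining chain of secreted antibody, was found in 97.5% and 97.8% of them, although *Ms4a1*, which encodes the B cell surface protein CD20, was found in 39.0% and 32.6%. Of the 1264 PEP-WT and 1348 PEP-619WW IgG barcodes, 1158 and 1064 held at least 10 *Mzb1* UMIs. The PEP-619WW class thus held more barcodes near the limit of the gate. IgM barcodes went against the label, because *Ms4a1* was found in 87.9% (PEP-WT) and 80.0% (PEP-619WW) of them and *Jchain* in 41.5% and 55.3%. They are therefore called IgM barcodes of the gate and not plasma cells. *Jchain* was also found in 18.9% (PEP-WT) and 32.3% (PEP-619WW) of B barcodes and in 21.3% and 39.4% of T barcodes. T barcodes, which should lack antibody genes, carried *Jchain* at 3.91% and 4.69% and *Igkc* at 3.97% and 4.40% of the level of the plasma gate, and the source of these UMIs was not tested. Of the T barcodes, 25 of PEP-WT and 46 of PEP-619WW also met the plasma gate. The 2 libraries shared 39 barcode sequences, 5 of them in the plasma gate of both.

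Levels are given as CPM, that is, UMIs per 1000000 UMIs of the class, and they are compared between classes for 1 gene, not between genes. *Xbp1* reached 1075 CPM (1061 to 1089) in PEP-WT IgG barcodes and 1139.7 CPM (1126 to 1154) in PEP-619WW IgG barcodes. In IgM barcodes it stood at 381 and 489 CPM, and in B barcodes at 50.2 and 59.5 CPM. The transcription factor of the ER stress response was thus 17.0-fold higher in the plasma gate than in B barcodes of PEP-WT (15.9 to 18.2) and 17.1-fold higher in PEP-619WW (15.7 to 18.7). *Sdc1* had the steepest step among members with over 10 UMIs in B barcodes, 36.0-fold in PEP-WT (25.7 to 52.1) and 31.2-fold in PEP-619WW (21.7 to 46.7). *Creld2* was 22.6-fold and 19.4-fold higher, *Prdm1* 7.15-fold and 8.07-fold, *Irf4* 2.06-fold and 2.54-fold, and *Slamf7* 3.15-fold and 2.66-fold. *Tnfrsf17* was nearly private to the plasma gate, with 487 and 330 UMIs there and 2 and 1 UMIs in B barcodes. Since *Mzb1* chose the plasma barcodes and was capped in the B barcodes, its own levels, 4155 and 4313 CPM against 417 and 424 CPM, only describe the gate.

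**Figure D1:**
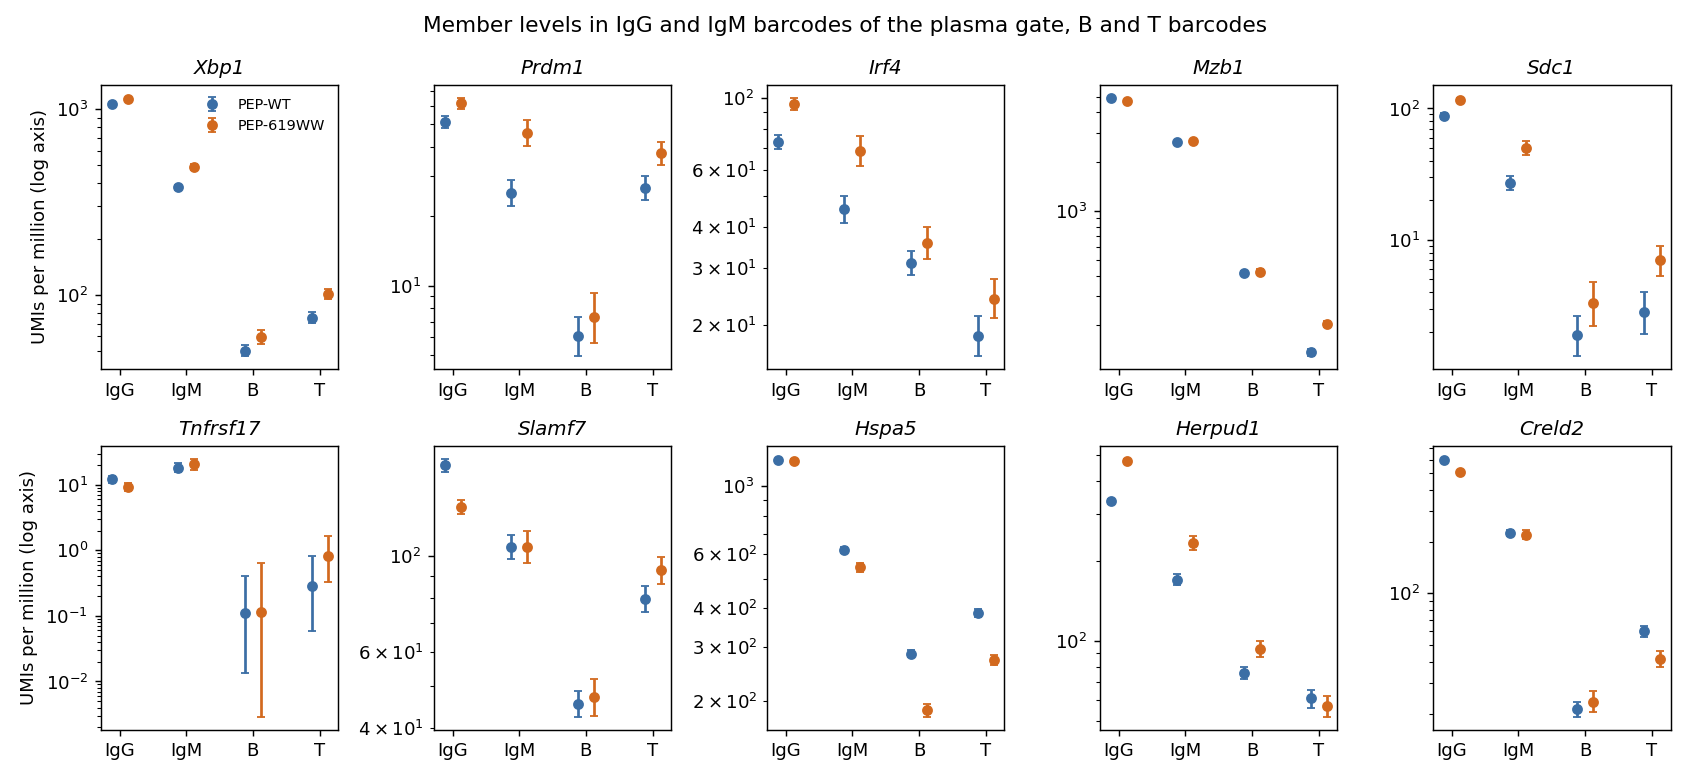
Level of each member in CPM (log axis, a scale of its own per gene) in IgG and IgM barcodes of the plasma gate, B barcodes and T barcodes, with 1 point per library and exact 95% Poisson intervals. IgG barcodes hold the highest level of every member except *Tnfrsf17*, which was higher in IgM barcodes, 18.3 and 20.8 CPM against 12.1 and 9.34 CPM.

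Between the isotypes of the gate, 8 of the 9 members other than *Mzb1* were higher in IgG than in IgM barcodes in both libraries. The ratio was 2.82 and 2.33 for *Xbp1*, 3.20 and 2.30 for *Sdc1*, 2.67 and 2.31 for *Creld2*, 1.97 and 2.04 for *Herpud1*, and 1.96 and 2.23 for *Hspa5* in PEP-WT and PEP-619WW, respectively. It was smaller for *Irf4* (1.61 and 1.39) and *Slamf7* (1.55 and 1.24), and for *Prdm1* it was 2.03 and 1.34. At least 2-fold higher in IgG barcodes were 4 of the 9 members in PEP-WT and 5 of 9 in PEP-619WW, against 4.42% and 4.24% of all genes with enough UMIs, whose median was at -0.22 and -0.23 (log2). *Tnfrsf17* alone ran the other way, at 0.660 times (0.541 to 0.806) and 0.449 times (0.354 to 0.573) its IgM level. In the IgA barcodes *Tnfrsf17* counted 69 UMIs in 20 PEP-WT barcodes (178 CPM, 139 to 225) and 17 UMIs in 23 PEP-619WW barcodes (30.5 CPM, 17.7 to 48.8), that is, 14.8-fold and 3.26-fold the IgG level. These few barcodes came from pooled mice, and up to 13 UMIs of *Tnfrsf17* came from 1 barcode.

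The position of the *Mzb1* limit was looked at among barcodes with *Cd79a*, with no test. Barcodes with 4 *Mzb1* UMIs, just outside the gate, held 70.2 CPM of *Xbp1* in PEP-WT and 109 CPM in PEP-619WW. Those with 5 UMIs, just inside, held 61.3 and 102 CPM, and *Ms4a1* stood at 939 and 623 CPM outside and at 930 and 744 CPM inside. The limit therefore fell within B cell-like barcodes. Among barcodes with 5 to 9 *Mzb1* UMIs, *Xbp1* was at 85.5 and 127 CPM and *Sdc1* at 4.79 and 10.1 CPM. At 50 to 99 *Mzb1* UMIs, *Xbp1* was at 1171 and 1205 CPM, *Sdc1* at 88.1 and 133 CPM, and *Ms4a1* at only 90.4 and 47.4 CPM. Median depth grew along the same axis, from 5282 and 4816 UMIs at 5 to 9 *Mzb1* UMIs to 19194 and 24428 UMIs at 100 or more.

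**Figure D2:**
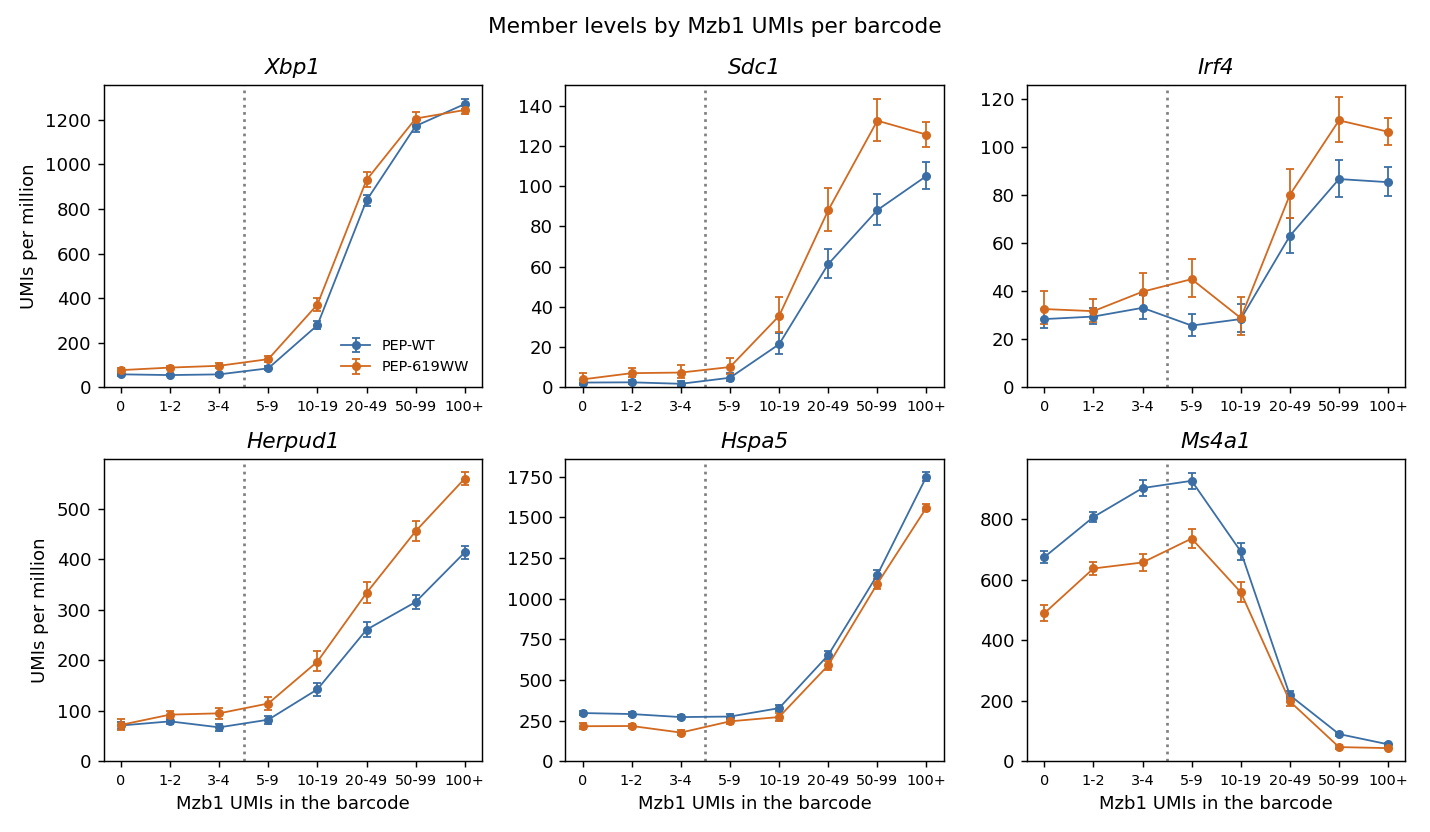
Level (CPM) of 5 members and of *Ms4a1* by the number of *Mzb1* UMIs in the barcode, among barcodes with *Cd79a*, with exact 95% Poisson intervals, and the gate drawn as a dotted line. *Xbp1* and *Sdc1* climb and *Ms4a1* drops between 10 and 50 *Mzb1* UMIs, well inside the gate. *Herpud1* and *Sdc1* lie higher and *Hspa5* lower in PEP-619WW in each bin, also outside the gate. At 1 to 2 *Mzb1* UMIs *Sdc1* is at 2.52 and 7.08 CPM and *Herpud1* at 79.3 and 92.7 CPM, while at 0 the intervals of both genes overlap.

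The IgM barcodes were divided further by whether they held an *Ms4a1* UMI. This division was chosen after the values had been seen. IgM barcodes without *Ms4a1* numbered 128 in PEP-WT and 103 in PEP-619WW, and immunoglobulin genes took 20.8% and 20.6% of their UMIs, close to the 22.5% and 23.2% of IgG barcodes. Their *Xbp1* was at 1229 and 1071 CPM, against 228 and 302 CPM in the IgM barcodes with *Ms4a1*. *Sdc1* was at 89.2 and 122 CPM against 16.1 and 27.2 CPM, and *Creld2* at 732 and 505 CPM against 132 and 128 CPM. The surface receptor *Tnfrsf17* stood at 64.3 and 62.3 CPM in IgM barcodes without *Ms4a1*, above the IgG barcodes in both libraries, with intervals that did not overlap. The same held for *Slamf7*, at 203 CPM (181 to 228) and 161 CPM (139.9 to 185). The IgG barcodes of this comparison were not divided by *Ms4a1*.

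**Figure D3:**
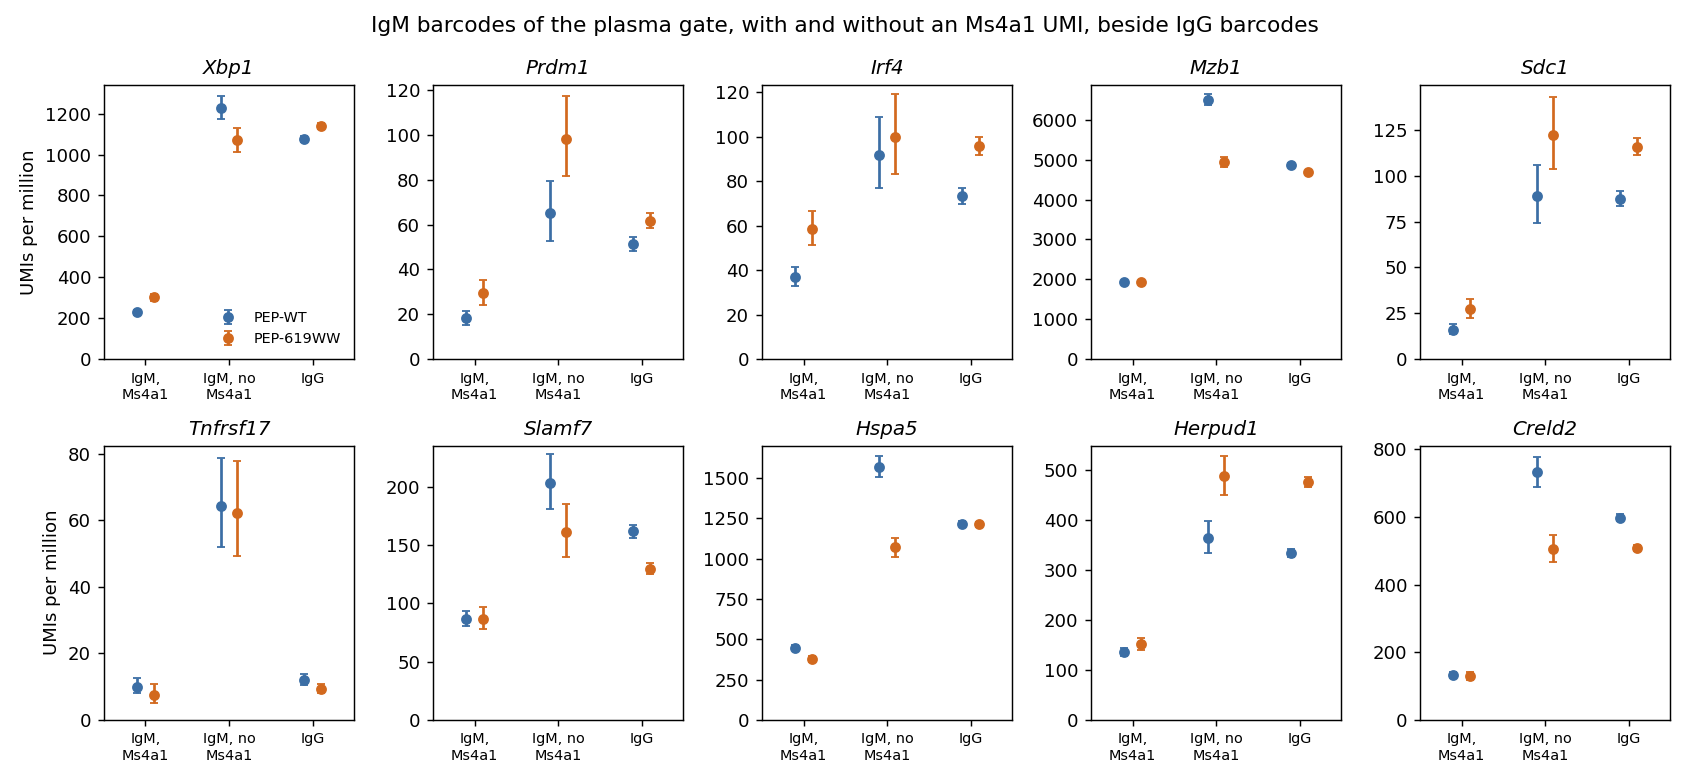
Level of each member (CPM) in IgM barcodes with and without an *Ms4a1* UMI and in IgG barcodes, with 1 point per library and exact 95% Poisson intervals. IgM barcodes without *Ms4a1* reach the IgG range for *Xbp1*, *Sdc1* and *Herpud1*, and exceed it for *Tnfrsf17* and *Slamf7*, while the IgG barcodes include those with *Ms4a1*.

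The genotypes were then compared within each class, to see which plasma cell and ER stress genes differed between the 2 libraries during infection. In the whole plasma gate, *Sdc1* and *Herpud1* were 1.52-fold higher in PEP-619WW, and *Irf4*, *Prdm1* and *Xbp1* were higher by ratios of 1.42, 1.37 and 1.19. The chaperone *Hspa5* was at 1029.7 and 1087 CPM and the ER stress gene *Creld2* at 479 and 455 CPM (-0.074, log2), the latter at 0.12 when scaled per barcode. The receptors *Tnfrsf17* and *Slamf7* were at 0.740 and 0.874 times, the latter at -0.0019 (log2) per barcode. Thus 2 of the 9 members other than *Mzb1* were past 1.5-fold higher and 0 of 9 past 1.5-fold lower, where 4.54% and 4.28% of the 11675 genes with at least 50 UMIs were. The members' median was 0.26 on the log2 scale and that of all genes was -0.0025. B cell identity genes were lower and erythroid markers far lower in PEP-619WW in the same barcodes, as given further on. The mix of isotypes differed between the libraries, so the same ratios are given within IgM and within IgG barcodes. In IgM barcodes 3 of 9 members (*Prdm1*, *Irf4* and *Sdc1*) were past 1.5-fold higher and 0 lower, against 6.19% and 3.62% of genes, and in IgG barcodes 0 of 9 were past it in either direction, against 4.55% and 3.61%. Scaling per barcode instead of as CPM raised the median of all genes to 0.19 (log2) in the whole gate, 0.21 in IgM and 0.039 in IgG barcodes. The shares past 1.5-fold then were 9.86% higher and 2.30% lower in the whole gate and 13.4% and 1.90% in IgM barcodes, and on that scale 4 of 9 members (*Prdm1*, *Irf4*, *Sdc1* and *Herpud1*) were past it higher in each of these, and 0 lower.

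**Figure D4:**
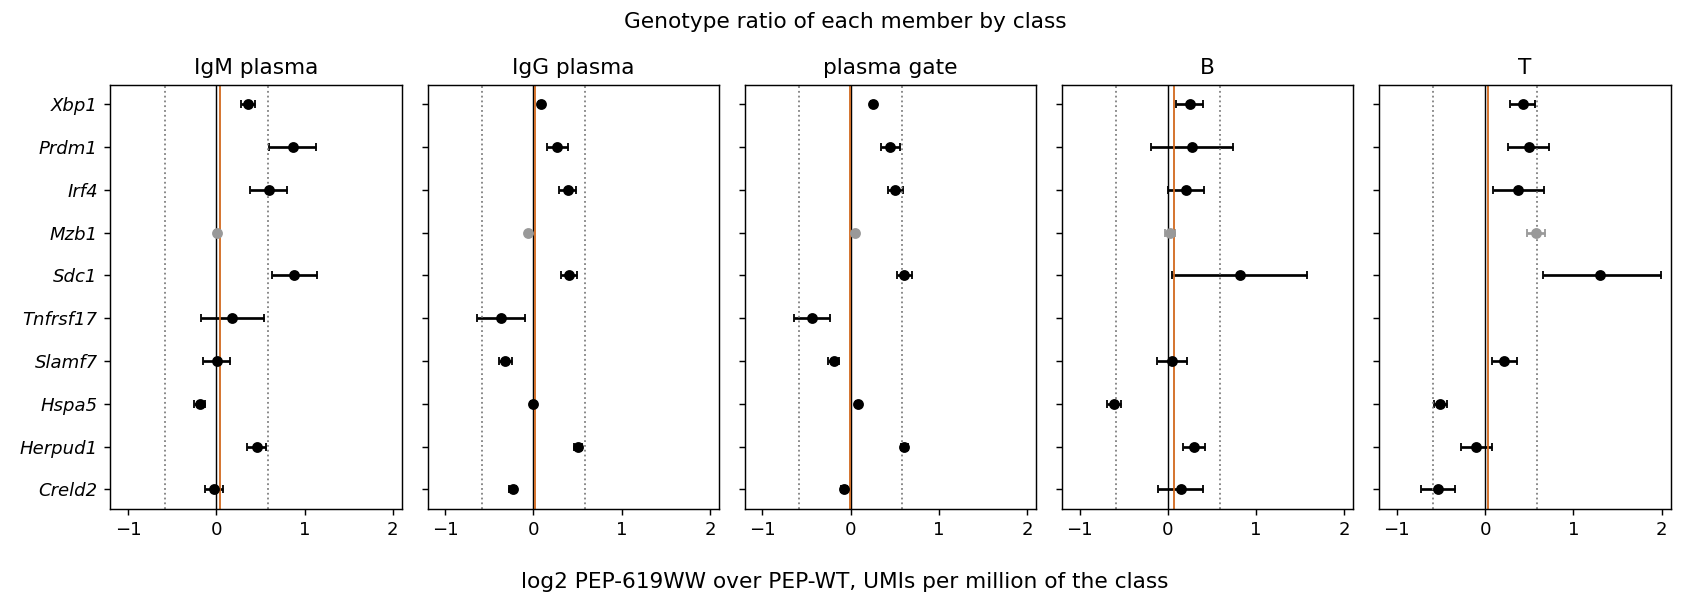
Ratio of PEP-619WW to PEP-WT (log2, CPM) for each member with at least 50 UMIs, with exact 95% intervals for counting error. The orange line is the median of all genes, dotted lines mark 1.5-fold, and grey marks *Mzb1*, which set the gate. In IgM and IgG barcodes *Prdm1*, *Irf4*, *Sdc1* and *Herpud1* lie to the right of 0, whereas *Hspa5* lies at -0.19 and -0.0033 and *Creld2* at -0.026 and -0.24 (per barcode 0.14 for *Creld2* in IgM barcodes). The IgM value of *Hspa5* includes 1 PEP-WT barcode with 745 of 5861 UMIs.

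Among the transcription factors, *Irf4* counted 1485 UMIs (73.2 CPM) in PEP-WT and 2098 UMIs (95.6 CPM) in PEP-619WW IgG barcodes, a ratio of 1.31 (1.22 to 1.40). In IgM barcodes its ratio was 1.51 (1.31 to 1.74), from 45.5 to 68.6 CPM. *Prdm1*, which encodes Blimp1, stood at 51.3 and 61.8 CPM in IgG barcodes (1.20-fold, 1.11 to 1.31) and at 25.3 and 46.1 CPM in IgM barcodes (1.82-fold, 1.52 to 2.19). Both regulators were higher in PEP-619WW in both isotypes. *Xbp1* differed less, 1.06-fold in IgG (1.04 to 1.08) and 1.28-fold in IgM barcodes (1.22 to 1.35), and its direction depended on the barcodes kept. With barcodes that held an *Ms4a1* UMI left out, *Xbp1* was lower in PEP-619WW, at -0.11 (log2) in IgG and -0.20 in IgM barcodes, with *Prdm1* at 0.11 and 0.60, and *Irf4* at 0.25 and 0.12. The IgM levels of *Irf4* were then 92.0 CPM (77.0 to 109) and 99.9 CPM (83.1 to 119), with intervals that overlapped. At a ratio of 0.12 (log2) *Irf4* was no longer past 1.5-fold there.

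Of the surface markers, *Sdc1* counted 1775 UMIs (87.5 CPM) in PEP-WT and 2542 UMIs (115.9 CPM) in PEP-619WW IgG barcodes, a ratio of 1.32 (1.25 to 1.41). IgM barcodes had 258 and 259 UMIs, or 27.3 and 50.3 CPM (1.84-fold, 1.55 to 2.20). *Sdc1* was thus higher in PEP-619WW in both isotypes, and at 0.27 and 0.45 (log2) without the barcodes with *Ms4a1*. The IgM levels of *Sdc1* were then 89.2 CPM (74.5 to 106) and 122 CPM (104 to 143), from 129 and 153 UMIs. At a ratio of 0.45 (log2) *Sdc1* was no longer past 1.5-fold there, although still higher in PEP-619WW, and the intervals of the 2 levels overlapped. In the 73 and 32 IgM barcodes without UMIs of another lineage it was lower, at -0.29. *Slamf7* ran the other way in IgG barcodes, at 161.9 and 129.8 CPM (0.802 times, 0.763 to 0.844), and was level in IgM barcodes at 104.7 and 104.9 CPM. *Tnfrsf17* was at 12.1 and 9.34 CPM in IgG barcodes (0.774 times, 0.640 to 0.935) and at 18.3 and 20.8 CPM in IgM barcodes, where the interval of the ratio held 1 (0.884 to 1.45). The sharpest gap of this receptor was among IgA barcodes, at 0.171 times (0.0943 to 0.294) on the few UMIs given above.

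The 3 ER stress members parted from each other. *Herpud1* counted 6777 UMIs (334 CPM) in PEP-WT and 10420 UMIs (475 CPM) in PEP-619WW IgG barcodes, 1.42-fold higher (1.38 to 1.47), and in IgM barcodes it was 1.37-fold higher (1.27 to 1.48), from 169.6 to 233 CPM. *Hspa5* was level in IgG barcodes, at 1216 and 1214 CPM (0.998 times, 0.981 to 1.02, but -0.18 on the log2 scale when thinned to 2000 UMIs), and lower in IgM barcodes, at 620.2 and 544 CPM (0.877 times, 0.838 to 0.918), where thinning turned it to 0.036 (log2). In PEP-WT 1 IgM barcode held 745 of the 5861 *Hspa5* UMIs of that class, against at most 117 of 2799 in PEP-619WW. The counting interval takes no account of this, and the ratio without that barcode was not computed. The IgM ratio of *Hspa5* is therefore not read as a lower level across the class. *Creld2* was at 598 and 507 CPM in IgG barcodes (0.849 times, 0.827 to 0.871) and at 224 and 219.98 CPM in IgM barcodes (0.982 times, 0.913 to 1.06). In IgG barcodes the degradation gene was therefore higher in PEP-619WW on the CPM scale, where *Hspa5* was level and *Creld2* lower. In IgM barcodes *Herpud1* was higher too, while the direction of *Hspa5* and *Creld2* depended on the setting. Without the barcodes with *Ms4a1* the split was also present: in IgG barcodes *Herpud1* was at 0.29 (log2), *Hspa5* at -0.26 and *Creld2* at -0.44, and in IgM barcodes they were at 0.42, -0.55 and -0.54. Whether the PEP-WT barcode with 745 *Hspa5* UMIs was among these IgM barcodes was not looked at.

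Values per barcode were looked at in the IgG barcodes, as raw UMIs that were not scaled to depth. Barcodes near the *Mzb1* limit were more common in PEP-619WW, and their part in these values was not tested. A *Herpud1* UMI was found in 85.2% of PEP-WT and 81.1% of PEP-619WW IgG barcodes and the median was 3 UMIs in both, but the 90th percentile was 12 and 18 UMIs and the highest barcode held 80 and 160. *Hspa5* was found in 95.2% and 87.6% with medians of 9 and 7, *Creld2* in 89.1% and 79.1% with medians of 6 and 4, and *Slamf7* in 79.4% and 65.0% with medians of 2 and 1. *Irf4* was found in 48.5% and 48.7% with a median of 0 in both, and its 90th percentile was 3 and 5 UMIs. After thinning to 2000 UMIs, which kept 1243 PEP-WT and 1176 PEP-619WW barcodes, the shares were 40.2% and 46.5% for *Herpud1*, 15.8% and 19.5% for *Sdc1*, 58.8% and 52.8% for *Creld2*, and 28.5% and 21.9% for *Slamf7*. For *Irf4* they were 14.8% and 15.6%. T barcodes thinned alike held *Herpud1* in 9.55% and 9.28%, *Sdc1* in 0.129% and 1.34% and *Creld2* in 5.23% and 5.57%.

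In the few IgA barcodes *Herpud1*, *Irf4*, *Sdc1* and *Xbp1* were higher in PEP-619WW and *Hspa5* was lower. *Herpud1* counted 99 and 216 UMIs (256 and 387 CPM, 1.51-fold, 1.19 to 1.94), and *Irf4* and *Sdc1* each counted 22 and 67 UMIs (2.11-fold, 1.29 to 3.60). *Xbp1* counted 390 and 698 UMIs (1.24-fold, 1.10 to 1.41). *Hspa5* was at 0.807 times (0.721 to 0.904), and the intervals of *Creld2* and *Slamf7* held 1.

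The IgG barcodes were also divided by proliferation. A UMI of the proliferation genes *Mki67* or *Top2a* was found in 65.3% of PEP-WT and 63.1% of PEP-619WW IgG barcodes, and this division, too, was chosen after values had been seen. Barcodes without such a UMI were also shallower, with median depths of 10048 and 6217 UMIs against 15120 and 17203 UMIs, so the division follows depth as well. *Herpud1* was 1.45-fold higher in PEP-619WW among IgG barcodes with such a UMI and 1.39-fold among those without. *Hspa5* was at 1.01 and 0.969 times and *Creld2* at 0.902 and 0.698 times, so *Creld2* was lowest relative to PEP-WT in the barcodes without proliferation UMIs. *Sdc1* differed by 1.41-fold with and 1.12-fold without such a UMI, the latter with an interval that held 0 on the log2 scale (-0.016 to 0.34). *Xbp1* was at 1.11 times with such a UMI and turned to 0.940 times without it (-0.14 to -0.036, log2). *Prdm1* was 1.15-fold higher with such a UMI and 1.44-fold without it in IgG barcodes. In IgM barcodes it was 2.03-fold higher with such a UMI, and at 1.14 times without it, where the interval held 0 (-0.40 to 0.77, log2).

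A ratio of 2 genes within 1 class does not depend on how libraries are scaled. Per 100 UMIs of *Hspa5*, IgG barcodes held 27.5 UMIs of *Herpud1* in PEP-WT (26.7 to 28.2) and 39.1 in PEP-619WW (38.3 to 40.0). IgM barcodes held 27.4 and 42.9, IgA barcodes 17.3 and 32.5, B barcodes 26.5 and 49.9, and T barcodes 15.7 and 20.9. In these 5 classes, and in CD8 T and neutrophil barcodes, the intervals of the 2 libraries did not overlap. The PEP-WT IgM value includes 1 barcode with 745 of the 5861 *Hspa5* UMIs. The PEP-WT T and CD8 T values include 1 barcode with 327 of 4095 and of 2801 *Hspa5* UMIs. Of the 13 classes examined, erythroid barcodes alone had a lower value in PEP-619WW, 6.54 against 10.6, from 7 and 27 *Herpud1* UMIs and with overlapping intervals. The intervals also overlapped in CD4 T, natural killer, monocyte or macrophage, and both dendritic cell classes. *Herpud1* itself was at 0.935 times in T (0.829 to 1.05), 0.870 in CD8 T (0.750 to 1.01), 0.991 in CD4 T, 0.985 in neutrophil and 0.891 in monocyte or macrophage barcodes, each with an interval that held 1, while *Hspa5* was lower there. *Creld2* per 100 *Hspa5* UMIs was lower in PEP-619WW in IgG barcodes, 49.1 and 41.8. It was higher in B barcodes (7.44 and 12.6). The intervals overlapped in IgM (36.1 and 40.4) and T barcodes (15.5 and 15.2).

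**Figure D5:**
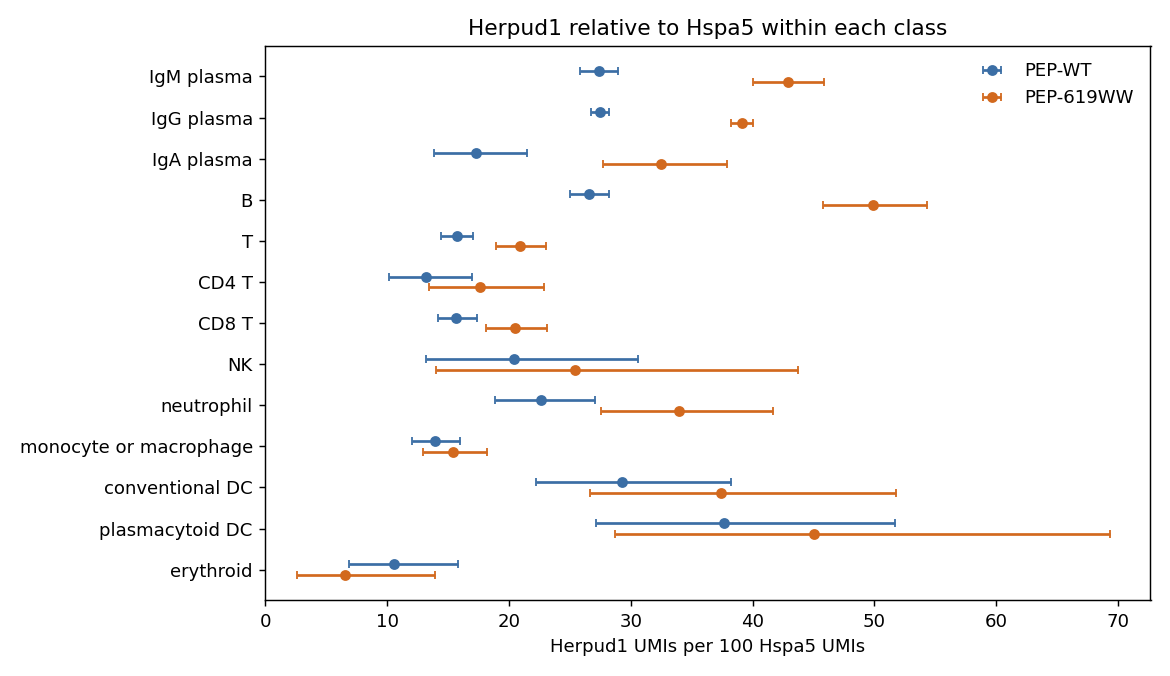
*Herpud1* UMIs per 100 *Hspa5* UMIs within each of 13 classes (DC, dendritic cell), with 1 point per library and exact 95% binomial-based intervals. PEP-619WW lies above PEP-WT in 12 of the classes shown and below it in erythroid barcodes, where *Herpud1* had 27 and 7 UMIs, and CD4 T and CD8 T barcodes are part of the T class.

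Outside the plasma gate, *Hspa5* was lower in PEP-619WW in B, T and most other classes. B barcodes held 5131 UMIs of it in PEP-WT (285 CPM, 277 to 293) and 1628 in PEP-619WW (186 CPM, 177 to 196), a ratio of 0.654 (0.618 to 0.691). In T barcodes the levels were 386 and 272 CPM, a ratio of 0.703 (0.668 to 0.740). The ratio was 0.741 in CD4 T, 0.665 in CD8 T, 0.657 in neutrophil, 0.805 in monocyte or macrophage and 0.722 in conventional dendritic cell barcodes, each with an interval below 1, whereas in natural killer, plasmacytoid dendritic cell and erythroid barcodes the interval held 1. In PEP-WT 1 CD8 T barcode held 327 of the 2801 *Hspa5* UMIs of that class, against at most 39 of 1528 in PEP-619WW. That barcode is also part of the T class, with 4095 UMIs, and the ratios without it were not computed. Thinning each barcode to 2000 UMIs left *Hspa5* at -0.78 (log2) in B and -0.34 in T barcodes. Scaled per barcode instead of as CPM, the log2 ratio was -0.40 in B and -0.084 in T barcodes, on a scale where the median gene stood at 0.28 and 0.45.

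In B barcodes, 1 of the 8 members with at least 50 UMIs was past 1.5-fold higher in PEP-619WW (*Sdc1*, 34 and 29 UMIs) and 1 lower (*Hspa5*), beside 5.99% and 3.32% of all genes (15.8% and 1.73% when scaled per barcode, where *Sdc1* was past it and *Hspa5* was not). *Herpud1* was 1.23-fold higher there (1.12 to 1.34) and *Xbp1* 1.18-fold (1.06 to 1.32), at levels of 75.7 and 93.0 CPM for the first and 50.2 and 59.5 CPM for the second. *Creld2*, *Slamf7* and *Prdm1* had ratios whose intervals held 1.

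In T barcodes, 1 of 8 members was past 1.5-fold higher (*Sdc1*, 30 and 60 UMIs) and 0 lower, beside 3.98% and 3.16% of all genes (30.0% and 0.778% when scaled per barcode, where 5 of 8 members, *Xbp1*, *Prdm1*, *Irf4*, *Sdc1* and *Slamf7*, were past it higher and 0 lower). The plasma cell marker *Sdc1* stood there at 4.16% and 6.76% of its level in the plasma gate, close to the shares of *Jchain* and *Igkc* in PEP-WT and above them in PEP-619WW. *Mzb1* was at 3.27% and 4.69%, which only describes the gate, since *Mzb1* chose the plasma barcodes. The *Sdc1* and *Mzb1* UMIs are not read as expression by T cells, and their source was not tested. In the T barcodes of the second run, where PEP-WT had 0 barcodes in the plasma gate, *Sdc1* was at 12.1 and 7.93 CPM, against 2.83 and 7.0 CPM in the first. The second-run levels rest on 9 and 69 UMIs in 72 and 1292 T barcodes, with intervals that overlapped. *Creld2* at 12.5% and 9.11% and *Xbp1* at 8.84% and 9.96% lay above these shares. *Prdm1* at 61.5% and 63.3% and *Slamf7* at 55.3% and 73.7% were far above them, and both genes are known to be used by activated T cells. *Slamf7* was 4.83-fold higher in CD8 than in CD4 T barcodes of PEP-WT and 2.78-fold in PEP-619WW, and *Prdm1* was 1.96-fold and 2.01-fold higher, each with an interval above 1. In PEP-619WW of the second run *Prdm1* was lower in CD8 T (37.9 CPM, 30.4 to 46.5) than in CD4 T barcodes (73.1 CPM, 64.2 to 82.9). Between genotypes, *Prdm1* was 1.41-fold (1.20 to 1.66) and *Slamf7* 1.16-fold (1.06 to 1.28) higher in PEP-619WW T barcodes. *Creld2* was at 0.690 times in T barcodes (0.604 to 0.787), but at 0.0070 (log2) when thinned. In the T barcodes of the second run *Creld2* was at 0.15 and *Slamf7* at -0.19 (log2), on 26 and 42 PEP-WT UMIs and with level intervals that overlapped. Without the T barcodes that also met the plasma gate, an alternative added after seeing the data, the log2 ratio was 0.57 for *Prdm1*, 0.28 for *Slamf7*, -0.25 for *Creld2* and -0.42 for *Hspa5*.

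The rest of the secretory pathway was followed in lists of related genes, with the whole plasma gate meant where no isotype is named. Of 21 genes of ER folding and of the IRE1 and ATF6 targets, 1 was past 1.5-fold higher in PEP-619WW and 0 lower, and 18 were above 0, with a median of 0.069 (log2). That gene was *Sec24d*, a coat protein of ER export vesicles, at 40.5 and 64.0 CPM. In IgG barcodes 8 of the 21 were above 0, with a median of -0.021. The abundant folding genes *Hsp90b1*, *Manf* and *Ppib* were at 3681 and 3739 CPM, at 1238 and 1329 CPM, and at 1045 and 1049.9 CPM. Among all genes with enough UMIs, 49.6% were above 0 in the whole gate and 52.4% in IgG barcodes. Past 1.5-fold in the whole gate were 4.54% higher and 4.28% lower. Of 15 genes of ER-associated degradation 0 passed 1.5-fold, and 13 were above 0 with a median of 0.24, and in IgG barcodes 10 were above 0 with a median of 0.15. *Selenok*, the most abundant of them, was at 693 and 710.5 CPM and at -0.085 (log2) in IgG barcodes. *Edem1*, which hands misfolded glycoproteins to degradation, was at 501 and 699 CPM, and *Selenos*, of the same machinery as *Herpud1*, at 327 and 435 CPM. The 23 translocon and glycosylation genes and the 15 genes of ER to Golgi traffic had 0 past 1.5-fold in either direction, with medians of 0.16 and 0.15. Above 0 were 20 and 13 of them in the whole gate and 15 and 7 in IgG barcodes. The most abundant were *Sec61b* of the translocon, at 1694 and 1953 CPM, and *Tmed10*, a cargo receptor of the early secretory pathway, at 465 and 529 CPM.

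Of the 8 ER stress sensor genes, 0 passed 1.5-fold and all 8 were above 0 in the plasma gate and in IgG barcodes, with medians of 0.27 and 0.20. Of all genes with enough UMIs, 49.6% and 52.4% were above 0. In IgM barcodes 7 of the 8 were above 0 and 2 past 1.5-fold higher, beside 55.0% and 6.19% of all genes with enough UMIs. *Atf6*, an ER membrane sensor, was at 70.1 and 89.2 CPM. In the PERK arm, 13 of 15 genes had enough UMIs and 8 were above 0. Past 1.5-fold, 1 was higher and 0 lower, beside 4.54% and 4.28% of all genes. That gene was *Atf5*, a transcription factor of the stress response, with 275 and 448 UMIs, while *Atf4* was at 114 and 119.9 CPM and *Ppp1r15a*, which encodes the phosphatase subunit GADD34, at 42.6 and 31.6 CPM.

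Other genes of plasma and B cells bear on how the gate was filled. In the whole gate 4.54% of all genes with enough UMIs were past 1.5-fold higher and 4.28% lower, and 49.6% were above 0. Among 20 other plasma cell genes 16 were above 0 and 1 was past 1.5-fold higher, *Trp53inp1*, at 312 and 499 CPM. In IgM barcodes 4 of 19 were past it higher, and in IgG barcodes 0 of 20, beside 6.19% and 4.55% of all genes. In the whole gate *Jchain* was at 6702 and 7297 CPM. Of the 19 B cell identity genes, 11 were past 1.5-fold lower in PEP-619WW in the whole gate, 3 in IgM barcodes and 8 in IgG barcodes, and 0 were past it higher. The shares of all genes past it lower were 4.28%, 3.62% and 3.61%. *Cr2*, the complement receptor of B cells, was at 48.0 and 10.8 CPM, and *Bach2*, a repressor of the plasma cell program, at 30.7 and 20.2 CPM. The 12 cell cycle genes had 0 past 1.5-fold and 1 above 0. Of 12 immunoglobulin constant genes, *Ighg1*, *Ighg2b* and *Igha* were past 1.5-fold higher in the gate and *Ighe* lower, the last with 251 and 29 UMIs. Markers of other cells moved in the same barcodes. All 6 erythroid markers were past 1.5-fold lower in PEP-619WW, with *Hbb-bs* at 883 and 133 CPM and a summed level of 1425 and 285 CPM. Of the 7 myeloid markers, *S100a8* and *S100a9* were past it higher, with a summed list level of 1903 and 2569 CPM, and of the 6 T cell markers 0 passed. Of 8 mitochondrial transcripts 0 passed, but 6 were above 0 in the gate and 7 in IgG barcodes, beside 49.6% and 52.4% of all genes. Their medians were 0.16 and 0.26 (log2). They took 2.24% and 2.53% of the UMIs in the gate and 1.98% and 2.39% in IgG barcodes. The part of these RNAs in the members' ratios was not tested.

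Across the gated classes of both libraries, 24 points in all, the genes whose level (log2 of CPM + 10) was most like a member's were taken, as a description with no test, since the points share libraries and cell types. For *Creld2* they were *Manf*, *Hsp90b1* and *Sec11c* (Pearson r 0.979, 0.973 and 0.956), for *Hspa5* *Pdia6*, *Ddost* and *Calr* (0.973, 0.958 and 0.953), and for *Sdc1* *Bhlha15*, *4933404K13Rik* and *Sec11c* (0.974, 0.971 and 0.970). *Xbp1* was nearest to *Ssr3*, *H13* and *Edem1* (0.956 each) and *Mzb1* to *Igkc*, *Fam214a* and *Eaf2*. *Herpud1* was nearest to *Pafah1b3*, *Hyou1* and *Selenos* (0.937, 0.904 and 0.894). *Irf4* was nearest to *Enpp1*, *Fam214a* and *Pou2af1*, *Prdm1* to *Os9*, *Hid1* and *Bcl2l11*, *Slamf7* to *Derl2*, *Nme2* and *Krtcap2*, and *Tnfrsf17* to *Igkv9-120*, *Chst1* and *Igkv1-110*. Within the IgG barcodes with at least 5000 UMIs, each thinned to that depth, *Hspa5* and *Creld2* varied together most among the ER stress members, with Spearman's rho of 0.539 over 1179 PEP-WT barcodes and 0.473 over 980 PEP-619WW barcodes. For *Hspa5* and *Herpud1* rho was 0.332 and 0.372, and for *Herpud1* and *Creld2* 0.281 and 0.275.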

How the data were processed

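The study describes single-cell 3' libraries of live CD45+ splenocytes, made by 10x Genomics chemistry from mice pooled by genotype. For each genotype 2 runs were deposited, and the mice, day and sort are not known for each run. The authors deposited raw counts: UMIs per gene and barcode, made with Cell Ranger 6.0.0 against mm10 according to the submitters' processing notes. The methods of the study name a later Cell Ranger version, and no source used here gives the filter on barcodes. How the runs relate is not stated, and the cell numbers in the study's methods match the second run (9539 and 11029 barcodes). The first run was used because it held nearly all barcodes of the plasma gate. Its libraries had 14821 barcodes and 77916082 UMIs (PEP-WT) and 8576 barcodes and 56745578 UMIs (PEP-619WW), with medians of 2832 and 3293 UMIs per barcode.

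No barcode was removed, no doublet caller was run and no clustering was done: classes were gates on UMIs of marker genes, so neither free RNA nor doublets were removed. Gene IDs were matched to symbols for 32158 of 32285 genes. UMIs were summed per class and divided by the UMIs of the class. Levels carry exact Poisson intervals, ratios exact conditional intervals and shares exact binomial (Clopper-Pearson) intervals at 95%, for counting error only. PEP-WT and PEP-619WW were compared as ratios with no test. A gene was counted as different past 1.5-fold with at least 50 UMIs over both libraries. Shares with a UMI were also computed after thinning each barcode to 2000 UMIs.

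Named genes were the 10 members, in each list genes taken from those past 1.5-fold and from the 3 with the most UMIs, and the 3 genes most alike to each member. Gene lists and members were chosen with earlier results of these data known. Scaling, gates, thinning, lineage filters and the second run were varied as alternatives. Leaving out *Ms4a1* barcodes, leaving the plasma gate out of the T barcodes and the division by proliferation UMIs were chosen after seeing the data. Analyses ran in Python 3.11.15 with numpy 2.4.6, scipy 1.17.1 and matplotlib 3.10.9, and the ratio code was tested on simulated data.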

Additional observations from a re-analysis of the deposited data

Results flagged for a closer look

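*Hspa5* stood at 0.078 (log2 of PEP-619WW over PEP-WT) in the plasma gate and at -0.61 in B barcodes, and likewise at 0.078 against -0.51 in T barcodes. These opposite directions, between classes of the same 2 libraries, were not tested. The plasma value was at -0.0033 in IgG and -0.19 in IgM barcodes, and it turned to -0.033, -0.22, -0.29 and -0.096 in 4 of the alternatives given further on. *Slamf7* stood at -0.19 in the plasma gate and at 0.22 in T barcodes, which was not tested either. Its plasma value was -0.0019 when scaled per barcode, and its T value was -0.19 in the second run, where PEP-WT had 42 UMIs of it in 72 T barcodes. Summed erythroid markers were lower in PEP-619WW in the plasma, B and T classes, from 1425 to 285 CPM in the plasma gate, from 4956 to 926 CPM in B barcodes and from 2623 to 689 CPM in T barcodes, and their part in these differences was not tested.

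The second deposited run, outside the comparisons above, held 15 barcodes with at least 5 *Mzb1* UMIs among 11029 PEP-619WW barcodes and 0 among 9539 PEP-WT barcodes. For the latter a fixed floor of 3 counts was taken as the limit, not an exact interval. That run held *Cd79a* in 0.105% of barcodes for PEP-WT and 7.21% for PEP-619WW, so B cells, too, were nearly absent from its PEP-WT library. The melanocyte gene *Dct* was found there in 16.0% and 2.74% of barcodes. No uninfected or other control library bears on this difference, which was not tested.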

How the results depend on the processing

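With 1 library per genotype leaving out a replicate was not possible. No paired analysis was possible because the genotypes share only 1 replicate number and no test was made. In the second run the plasma classes gave no value, as PEP-WT had 0 such barcodes. *Tnfrsf17* had only 1 to 7 UMIs in B and T barcodes, and the IgA values rest on 20 and 23 barcodes.

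Each member under each alternative setting was counted as 1 case, with *Mzb1* included in the plasma classes. The direction of the reported value was kept in 87 of 100 cases in the whole gate, 69 of 90 in IgM and 82 of 90 in IgG barcodes. It was kept in 59 of 60 in B and 70 of 78 in T barcodes. The size often moved: only 32 cases in the whole gate, 47 in IgM, 50 in IgG, 42 in B and 41 in T barcodes were tallied as the same. A change of direction is called a reversal only where the interval of the reported value did not hold 0, and the 17 others in IgM, 3 in IgG, 1 in B and 4 in T barcodes were of values whose interval held 0. *Herpud1* stayed above 0 in each alternative in the whole gate (0.30 to 0.80, log2), IgM (0.12 to 0.62) and IgG barcodes (0.29 to 0.53), and *Hspa5* below 0 in B (-0.78 to -0.40) and T barcodes (-0.59 to -0.084).

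The sum of the 9 members other than *Mzb1* was 0.18 in the whole gate. It was 0.23 scaled outside immunoglobulin genes, 0.37 per barcode, 0.15 with barcodes weighted alike, 0.16 thinned, 0.096 with IgM and IgG weighted equally, 0.23 at 3 and 0.093 at 10 *Mzb1* UMIs. It turned to -0.032 without barcodes holding UMIs of another lineage, to -0.093 with at least 20% immunoglobulin and to -0.16 without *Ms4a1*. *Hspa5* gave more UMIs than any other member to the sums in B and T barcodes, where the median member was higher, at 0.23 (7 of 8 above 0) and 0.30 (5 of 8). Among all genes with enough UMIs, 59.3% and 54.6% were above 0 there. The sum in B barcodes, -0.18, was 0.030 per barcode and -0.12 with barcodes weighted alike. The sum in T barcodes, -0.17, was 0.26 per barcode, 0.093 with barcodes weighted alike, -0.051 without other lineages, -0.27 in the second run, -0.25 at 2 *Cd3e* UMIs and -0.044 thinned.

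Other reversals, in the order lineage filter, 20% immunoglobulin and no *Ms4a1*, were in the whole gate *Xbp1* (-0.089, -0.047 and -0.10), *Hspa5* (-0.033, -0.22 and -0.29) and *Mzb1* (-0.20, -0.13 and -0.25), and in IgG barcodes *Xbp1* (-0.093, -0.063 and -0.11). Equal weights of IgM and IgG gave *Hspa5* -0.096 and *Mzb1* -0.022, 10 *Mzb1* UMIs gave *Mzb1* -0.037, and the per barcode scale gave *Creld2* 0.12. In IgM barcodes *Xbp1* was -0.24 and *Sdc1* -0.29 under the lineage filter (73 and 32 barcodes), *Xbp1* -0.20 without *Ms4a1* and *Hspa5* 0.036 thinned. In IgG barcodes *Xbp1* was -0.092 with barcodes weighted alike and -0.026 thinned. In T barcodes the second run, with 72 PEP-WT and 1292 PEP-619WW barcodes, gave *Sdc1* -0.61, *Creld2* 0.15 and *Slamf7* -0.19. These rest on 9, 26 and 42 PEP-WT UMIs, and the intervals of the 2 levels overlapped for each gene. Thinning gave *Creld2* 0.0070. The cause of these reversals was not tested. Genes past 1.5-fold in the whole gate numbered 530 higher and 500 lower, 236 and 266 at a minimum of 200 UMIs, and 1235 and 1074 at 10.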
